A study of Mus musculus with 2 samples.

Results

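The oxygen sensing and HIF genes described here are Hif1a, Epas1, Arnt, Vhl, Egln1, Egln2, Egln3, Hif1an, Vegfa and Adm. They were taken by symbol as the subunits of hypoxia-inducible factor (HIF), the enzymes and ligase subunit that act on it, and a pair of its secreted targets. All 10 were found among the 43346 gene entries of the tables.

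The cells were G1E, an immortalised line of mouse cells labelled as an erythroid progenitor that is Gata1-, with male sex, postnatal stage and an age of 0 day. Poly(A) RNA was sequenced from both ends in 2 libraries of 1 group, named replicate 1 and replicate 2, with 61982634 and 80658648 expected counts (estimated read counts). Both cite the same biosample, so the spread between them may be technical. The labels name no treatment, and the oxygen level of the culture is not given in the sources used here. The group is a single line with no second genotype or condition, so every value is a level, a ratio within a library or a difference between the libraries. Levels are in TPM, an abundance in which all transcripts of a library sum to a fixed total, scaled by effective transcript length, and errors are the SD over the libraries (n = 2).

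The labels were set against markers. All 12 erythroid progenitor markers were at 10 TPM or more in both libraries, and the summed level of the list was 8261 and 8595 TPM. Gata1 itself was at 48.0 and 46.6 TPM in these libraries labelled Gata1-, and a summed level does not show whether the transcript codes for a complete protein. Of 9 endothelial markers only Eng reached 1 TPM in both libraries, with summed levels of 5.25 and 6.44 TPM and Pecam1, Cdh5 and Emcn at 0 counts. None of 7 fibroblast markers, 2 of 9 macrophage and granulocyte markers (Cd68 and Mpo) and 2 of 7 lymphocyte markers (Ptprcap and Lck) did so. Summed levels of those lists were 0.01 and 0.01, 4.74 and 5.77, and 166 and 151 TPM, and the last sum rests on Ptprcap, with Cd3e and Ms4a1 at 0 counts.

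HIF is a dimer of an oxygen-labile alpha subunit, such as HIF1A or EPAS1 (HIF2A), and the stable partner ARNT. In the presence of oxygen the prolyl hydroxylases EGLN1, EGLN2 and EGLN3 modify the alpha subunit, VHL then recognises it for ubiquitination and destruction, and HIF1AN, an asparaginyl hydroxylase, blocks its contact with coactivators. The control acts mainly on the protein, so RNA levels show which components a cell makes and not how active HIF is. In the red cell lineage the pathway is best known for erythropoietin, which is made in kidney and liver and acts on progenitors.

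Of the 10 genes, 7 were detected, meaning 1 TPM or more in both libraries, and 6 of these were at 10 TPM or more. Over all 21474 protein-coding genes 40.0% were detected. Epas1 and Adm had 0 counts in both libraries, as did 39.4% of protein-coding genes, and Egln3 had 1 count in each. By mean level the order was Egln2, Arnt, Vegfa, Egln1, Hif1a, Hif1an, Vhl, Egln3 and then Epas1 and Adm together. The ranges of the 2 libraries overlapped between the neighbours Arnt and Vegfa, Hif1a and Hif1an, and Epas1 and Adm, so these pairs were not separated, while the other neighbours did not overlap. In a bulk library, fewer cells with a transcript and less of it per cell cannot be told apart.

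**Figure D1:**
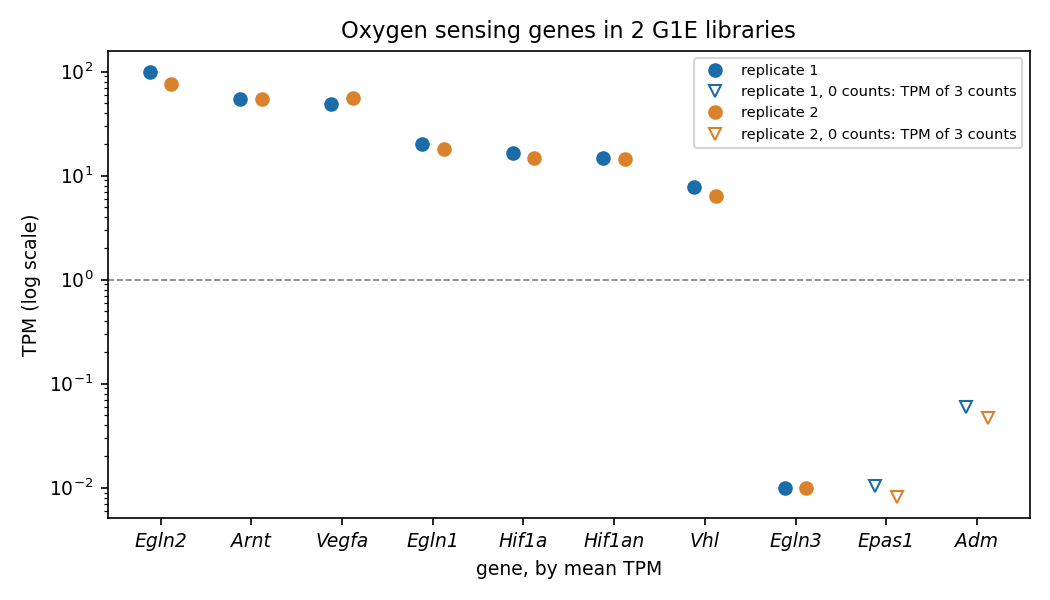
Level of each gene in each library (TPM, log axis), ordered by mean; circles are the 2 libraries, and open triangles mark what 3 counts would give where a gene had 0 counts. Egln2 is highest at 99.0 and 75.3 TPM, 7 genes lie above the dashed line at 1 TPM, and Egln3, Epas1 and Adm lie far below it.

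Only 1 of the alpha subunits among the 10 genes was detected in these cells. Hif1a (ENSMUSG00000021109.9; chromosome 12, 73901375 to 73947530, plus strand; positions here and below are of GRCm38, the assembly also called mm10) measured 16.5 TPM in replicate 1 and 14.6 in replicate 2, from 2013 and 2607 counts. It stood at percentile 50.6 and 45.4 of the 9150 genes detected in both libraries. By the summed TPM of its transcripts, Hif1a was thus near the middle of the detected genes in both libraries. Most of that TPM was assigned to the short model Hif1a-203, described below. With only transcripts tagged as consensus coding sequences, Hif1a was at 3.23 and 4.50 TPM, and its percentile on that basis was not computed.

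Epas1 (ENSMUSG00000024140.9; chromosome 17, 86753700 to 86833410, plus strand), the paralogue known for its role in kidney erythropoietin synthesis and in endothelium, had 0 counts in each library. A count of 0 allows up to 3 counts, which would be 0.0104 TPM in replicate 1 and 0.00822 in replicate 2; such limits cover counting error only. Against those limits Hif1a was at least 1585-fold higher in replicate 1 and at least 1778-fold higher in replicate 2.

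Arnt (ENSMUSG00000015522.14; chromosome 3, 95434388 to 95497240, plus strand), the shared partner, was at 54.8 and 54.9 TPM, from 9056 and 11603 counts. These values differed little, with a mean of 54.8 ± 0.0990 TPM. The log2 ratio of Hif1a to Arnt was -1.73 in replicate 1 and -1.91 in replicate 2, -1.82 ± 0.13 (SD, n = 2), so Arnt RNA exceeded Hif1a RNA in both libraries.

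The third alpha subunit, Hif3a, was taken from a list of HIF paralogues and relatives, since it changes the order of the alpha subunits. Hif3a (ENSMUSG00000004328.11; chromosome 7, 17031507 to 17062427, minus strand), some of whose products restrain HIF activity, was at 160 and 182 TPM, from 22049 and 38698 counts. It was 9.68-fold and 12.5-fold above Hif1a and 2.91-fold and 3.32-fold above Arnt within replicate 1 and replicate 2. The order of the alpha subunits was therefore Hif3a, Hif1a, Epas1 in both libraries.

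Of the 9 relatives in that list, the other detected gene was Arntl, which encodes the clock factor BMAL1, at 2.63 and 4.15 TPM. Clock, its partner, was at 0.35 and 0.49 TPM. Arnt2, the paralogue that can replace ARNT, and Sim1, Sim2 and Arntl2 had 0 counts in both libraries, while Ahr and Npas2 had at most 1 count.

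The transcripts assigned to Hif1a were mostly of a short model. Hif1a-203, of 1759 bases in 6 exons with an open reading frame of 258 codons, took 79.7% of the gene's TPM in replicate 1 and 69.0% in replicate 2. Hif1a-201, of 4724 bases in 15 exons with 836 codons, took 19.6% and 30.8%. In expected counts they were closer, at 1186 and 1149 for Hif1a-203 against 825 and 1457 for Hif1a-201, since a longer transcript yields more reads per molecule. The ranges of the shares did not overlap, but by counts the long transcript was lower in replicate 1 and higher in replicate 2.

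Both start at the same base and share their first 5 exons. The sixth exon of Hif1a-203 runs on past the splice site used by Hif1a-201, to 803 bases, and its frame ends 4 bases beyond that site. The end of the frame is shown because it separates the models; it lies at chr12:73932451-73932480 on the plus strand (GRCm38, from GENCODE M21), and capitals mark the bases past the shared exon, with the stop codon last.
Hif1a-203 frame end: atgaaattttcttactgtgatgaaagGTAA
The full-length protein carries its oxygen-dependent degradation domain, with the prolines that the EGLN enzymes modify, downstream of the DNA-binding and PAS domains. Of the 1759 bases of Hif1a-203, 1159 are shared with Hif1a-201 and 600 are its own, while 3565 bases are found only in Hif1a-201. Reads in the shared part were divided between the models by the authors' quantification, and coverage of the separate parts was not analysed here. In M21 the exons of Hif1a also overlap those of Gm49321, a protein-coding gene on the same strand with no value in the tables used here, and of the antisense gene Gm15283, which had 0 counts; how reads of Gm49321 would have been assigned was not tested. Hif1a-202, another coding model, which starts 6529 bases upstream, was at 0 in both libraries.

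**Figure D2:**
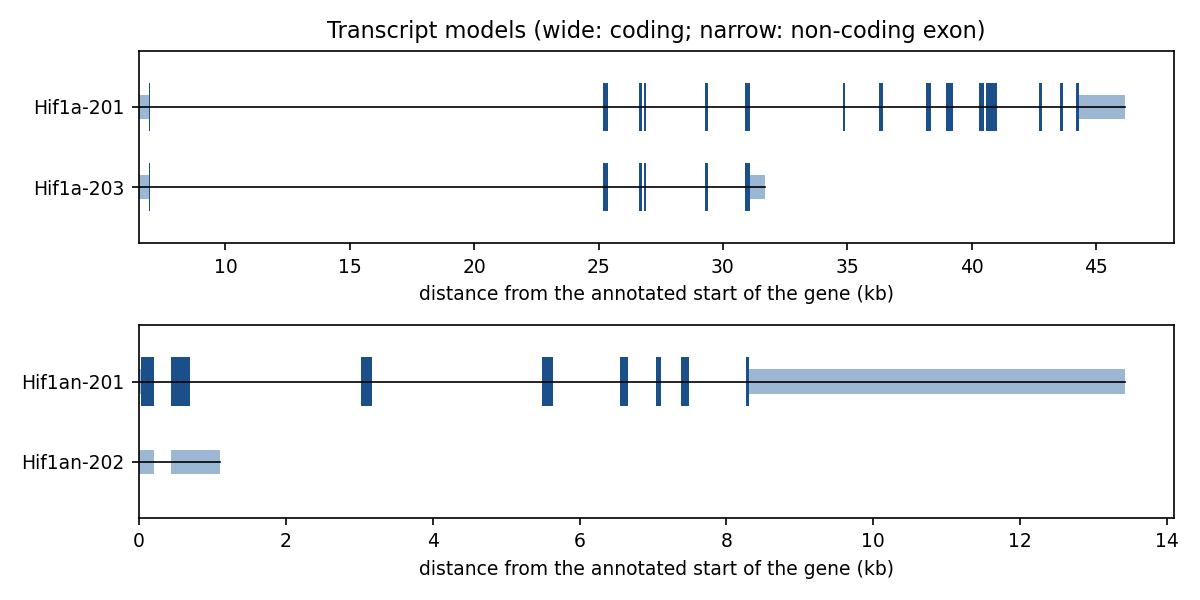
Exon models of Hif1a-201 and Hif1a-203 (upper panel) and of Hif1an-201 and Hif1an-202 (lower panel) against distance from the annotated start of the gene (kb); wide blocks are coding and narrow blocks non-coding. Each short model shares its start with the long one and ends in an exon that runs past a splice site used by the long one.

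Hif3a and Arnt each divided their TPM between a pair of coding transcripts. Hif3a-201, with 662 codons, took 89.2% and 75.0% of Hif3a TPM, and Hif3a-202, with 664 codons, a start 5748 bases upstream and a last exon of 4459 bases, took 10.1% and 23.2%. Arnt-203, with 791 codons, took 66.6% and 61.1% of Arnt TPM, and Arnt-202, with 776 codons, took 21.7% and 26.4%. The Arnt pair differs in its reading frame by 1 exon of 45 bases, the fifth exon of Arnt-203, at chr3:95466793-95466837 on the plus strand. It is printed because its 15 codons are in only some of the Arnt transcripts to which TPM was assigned.
Arnt exon 5: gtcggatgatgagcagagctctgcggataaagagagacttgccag
Coding transcripts with this exon held 66.6% and 61.1% of Arnt TPM and those without it 27.2% and 28.2%, and models annotated as retained introns held 6.25% and 10.7%. By the authors' quantification the form with the exon was therefore the larger in both libraries. Arnt-203 has 47 bases that are not in Arnt-202, which has 1673 of its own. Coverage of the exon itself was not analysed here.

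**Figure D3:**
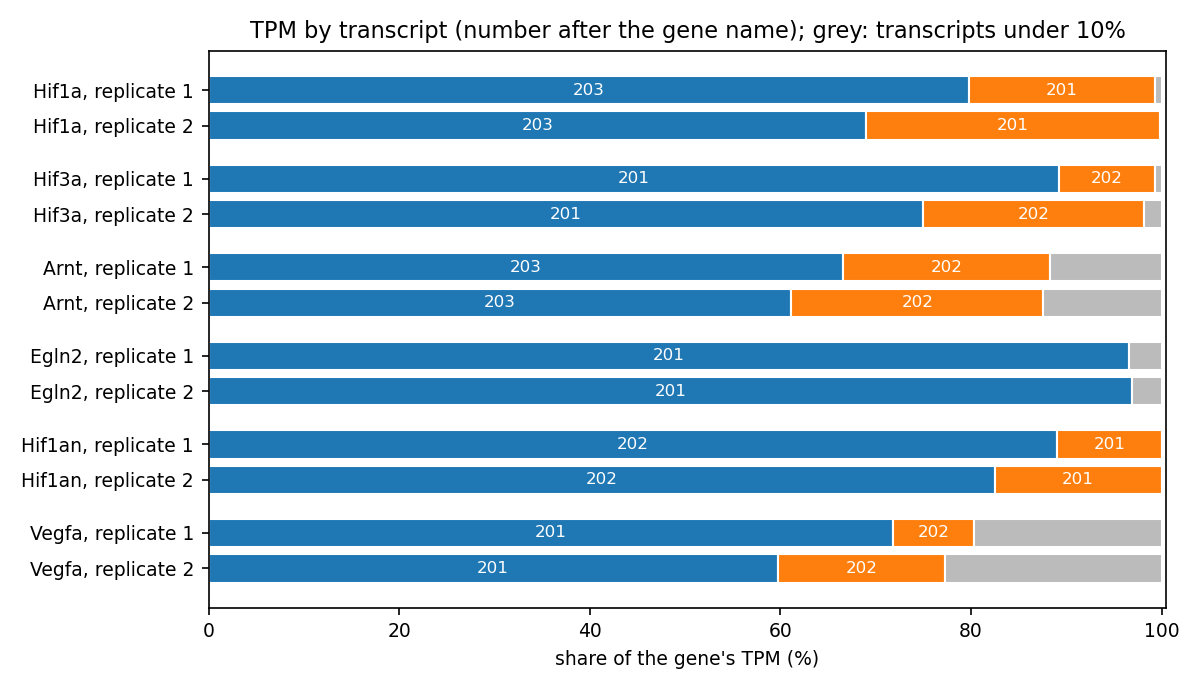
Share of each gene's TPM (%) assigned to its transcripts in each library; coloured bars are transcripts with a mean share of 10% or more, named by the number after the gene symbol, and grey is the sum of the rest. The second coloured bar is wider in replicate 2 than in replicate 1 for each of the 5 genes that have one.

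Among the hydroxylases, Egln2 RNA was the most abundant and Egln3 RNA was almost absent. Egln2 (ENSMUSG00000058709.7; chromosome 7, 27158658 to 27166802, minus strand), which encodes PHD1, had 99.0 TPM in replicate 1 and 75.3 in replicate 2, from 10727 and 10294 counts. Its mean was 87.2 ± 16.8 TPM, the widest spread of the 10 genes, and the authors' deposited TPM intervals, 95.9 to 99.7 and 73.1 to 76.0, did not overlap. The level of their confidence is not given in the sources used here.

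Egln1 (ENSMUSG00000031987.5; chromosome 8, 124908587 to 124949324, minus strand), which encodes PHD2, the main oxygen sensor of most tissues, was at 19.99 and 18.2 TPM, from 3764 and 4336 counts. Egln2 exceeded Egln1 4.95-fold and 4.14-fold within the libraries. Egln3 (ENSMUSG00000035105.5; chromosome 12, 54178981 to 54203860, minus strand), which encodes PHD3 and is itself a HIF target in many cells, was at 0.01 TPM in both, resting on 1 count each.

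Of the TPM of these 3 prolyl hydroxylases, Egln2 made up 83.2% and 80.5% (81.9% ± 1.89) and Egln1 16.8% and 19.5% (18.1% ± 1.89). Egln3 had 1 of the 14492 counts of the family in replicate 1, or 0.00690% (exact Clopper-Pearson 95% interval 0.000175 to 0.0384%), and 1 of 14631 in replicate 2, or 0.00683% (0.000173 to 0.0381%). The intervals cover counting error only. Egln2 held most of the family in both libraries.

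Egln2 RNA was almost wholly of the longest Egln2 model, of 2107 bases and 419 codons, with 96.6% and 96.9% of TPM. The exons of Egln2 overlap those of Cyp2t4 on the opposite strand, which had 0 counts. Egln1 and Egln3 each had a single model in use. Hif1an (ENSMUSG00000036450.4; chromosome 19, 44562850 to 44576274, plus strand), the asparaginyl hydroxylase FIH, was at 14.8 and 14.4 TPM, from 1084 and 1680 counts. With a mean of 14.6 ± 0.325 TPM, its range overlapped that of Hif1a.

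Most of the Hif1an TPM was assigned by the authors' quantification to a model that codes for no protein. Hif1an-202, a retained-intron transcript of 868 bases in 2 exons, took 89.0% and 82.5% of TPM, or 13.2 and 11.8 TPM. Hif1an-201, of 6194 bases with 349 codons, took 11.0% and 17.5%, or 1.63 and 2.52 TPM. In counts the order was the other way in both libraries, with 534 and 603 for Hif1an-202 and 550 and 1077 for Hif1an-201. The models share 456 bases, and 412 bases are found only in Hif1an-202. Coverage of the separate parts was not analysed here. On coding transcripts alone Hif1an was therefore at 2.08 ± 0.629 TPM, while Hif1a was at 15.5 ± 1.27. That gap depends on the short Hif1a-203, which is annotated as coding. With only transcripts tagged as consensus coding sequences, which leaves out Hif1a-203, Hif1a was at 3.87 ± 0.898 TPM and Hif1an still at 2.08 ± 0.629.

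A pair of DNA pentamers to which HIF binds, ACGTG and GCGTG, was searched on both strands of RefSeq promoter windows on GRCm38, each of 250 bases before and 50 after a start. An ACGTG within a palindromic CACGTG counts once on each strand. Windows were found for 9 of the genes, and 8 of their 11 windows, in 7 genes, held a match, against 43.8% of all 32851 windows. ACGTG alone was in 19.6% of all windows and GCGTG in 32.4%. The windows of Egln2, Egln3 and Adm are printed up to 10 bases past the start site, since these genes lie at opposite ends of the range of levels while all hold the pentamer; capitals mark the matches, which read CACGT or CACGC where they lie on the other strand.
Egln2, chr7:27166793-27167052, minus strand: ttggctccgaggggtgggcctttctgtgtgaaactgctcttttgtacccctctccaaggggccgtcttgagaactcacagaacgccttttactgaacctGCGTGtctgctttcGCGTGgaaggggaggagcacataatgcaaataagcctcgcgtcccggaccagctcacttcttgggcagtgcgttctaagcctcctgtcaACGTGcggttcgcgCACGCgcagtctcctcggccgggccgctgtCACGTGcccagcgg
Egln3, chr12:54203865-54204124, minus strand: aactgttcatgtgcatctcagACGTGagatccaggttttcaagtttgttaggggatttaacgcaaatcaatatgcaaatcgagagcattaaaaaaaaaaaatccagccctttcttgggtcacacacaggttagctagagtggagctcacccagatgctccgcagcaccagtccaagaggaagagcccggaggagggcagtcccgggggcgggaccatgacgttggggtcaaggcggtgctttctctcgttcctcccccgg
Adm, chr7:110627407-110627666, plus strand: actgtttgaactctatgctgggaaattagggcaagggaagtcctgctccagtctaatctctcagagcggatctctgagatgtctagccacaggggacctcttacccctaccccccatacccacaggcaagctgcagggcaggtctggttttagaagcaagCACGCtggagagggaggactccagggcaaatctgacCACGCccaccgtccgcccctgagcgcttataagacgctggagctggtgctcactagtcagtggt
The Egln2 window at the start of the longest model held 6 matches, of which 2 are the strands of 1 CACGTG at the start site, and 0.694% of all windows held 6 or more. The windows of Adm and Egln3 held 2 and 1, and those of Egln1, Hif1a and Arnt held 2, 3 and 1. The windows of Vhl and Hif1an, and the Vegfa window at the start of Vegfa-202, held no match. A second Vegfa window, inside the gene at chr17:46025114-46025413, held 2 matches, and a second Egln2 window, at chr7:27165679-27165978, held 1. Matches are a description of the windows and binding was not measured.

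Vhl (ENSMUSG00000033933.9; chromosome 6, 113623959 to 113631633, plus strand), the substrate receptor that binds hydroxylated HIF, was the lowest of the detected genes. Its level in replicate 1 was 7.82 TPM and in replicate 2 it was 6.42, from 1156 and 1200 counts, all assigned to Vhl-201 with 181 codons. The log2 ratio of Vhl to Hif1a was -1.08 and -1.19 (-1.13 ± 0.08). This order depends on the short Hif1a model. With only the transcripts tagged as consensus coding sequences (CCDS), which leaves out Hif1a-203, Hif1a was at 3.87 ± 0.898 TPM and the log2 ratio of Vhl to Hif1a was 0.89.

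The partners that build the VHL ligase were all detected. Elob, the elongin B subunit, was 62.4-fold and 121-fold above Vhl, and Eloc, elongin C, 2.37-fold and 3.53-fold. The scaffold Cul2 was 2.82-fold and 2.95-fold above Vhl. Rbx1, the RING subunit, was at 7.87 and 22.4 TPM, equal to Vhl in replicate 1 within 1.01-fold and 3.49-fold above it in replicate 2. Vhl was therefore the lowest of the 5 subunits in both libraries, with Rbx1 level with it in replicate 1.

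The secreted targets differed, with Vegfa RNA abundant and Adm RNA not detected. Vegfa (ENSMUSG00000023951.12; chromosome 17, 46016993 to 46032369, minus strand), the main angiogenic growth factor, reached 48.8 TPM in replicate 1 and 55.3 in replicate 2, from 6372 and 8900 counts. It stood at percentile 73.5 and 74.9 of the detected genes. Adm (ENSMUSG00000030790.10; chromosome 7, 110627661 to 110629820, plus strand), which encodes the vasodilator peptide adrenomedullin, had 0 counts in both, which allows up to 0.0593 and 0.0471 TPM by counting error. The authors' deposited posterior mean TPM of Adm was above those limits, at 0.10 and 0.08, with upper interval bounds of 0.262 and 0.211, and still under 1 TPM.

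By the authors' quantification, the most abundant Vegfa transcript was the one without either of the cassette exons that code for the heparin-binding part of the protein. Vegfa-201, with 146 codons, took 71.8% of Vegfa TPM in replicate 1 and 59.7% in replicate 2, or 35.1 and 33.0 TPM. Vegfa-202, with the downstream cassette exon of 132 bases, an upstream start and 368 codons from a non-AUG start, took 8.53% and 17.6%, or 4.17 and 9.74 TPM. Vegfa-207, with both cassette exons and 392 codons, was at 2.98 and 0 TPM. All 2765 bases of Vegfa-201 are also in Vegfa-202, which has 686 more and starts 554 bases upstream. These models thus differ in their start as well as in the exon, and coverage of the cassette exons was not analysed here.

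The level of Vegfa-201 was similar in both libraries, while the transcripts with a cassette exon were not. The other coding models were low, with Vegfa-203 and Vegfa-204 at 0 and Vegfa-211 at 0 and 0.38% of TPM. Models annotated as retained introns together held 13.5% and 22.3%. The cassette exons are printed because they separate the forms. They lie at chr17:46022277-46022348 (72 bases, 24 codons) and chr17:46020991-46021122 (132 bases, 44 codons), on the minus strand of GRCm38.
Vegfa upstream cassette exon: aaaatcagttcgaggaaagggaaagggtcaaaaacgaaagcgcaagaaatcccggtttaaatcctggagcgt
Vegfa downstream cassette exon: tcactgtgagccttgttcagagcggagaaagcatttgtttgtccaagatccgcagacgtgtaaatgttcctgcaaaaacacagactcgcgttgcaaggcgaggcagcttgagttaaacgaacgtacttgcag

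In each of the 4 genes with a pair of leading transcripts, both with a mean share of 10% or more, the share of the longer one within the pair was higher in replicate 2 than in replicate 1. The difference, replicate 2 minus replicate 1, was 11.2 percentage points for Hif1a, 5.59 for Arnt, 6.54 for Hif1an and 12.2 for Vegfa, and it was 13.5 for Hif3a. Over all 4354 genes with such a pair the longer transcript was higher in replicate 2 in 57.2%, with a median difference of 2.17 points. The comparison was chosen after these values were seen, and what moves the shares was not tested.

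Receptors for these ligands were close to 0. Of 15 related ligands and receptors, only Vegfb was detected, at 117 and 93.4 TPM, and the log2 ratio of Vegfa to Vegfb was -1.26 and -0.76, so Vegfb RNA was the higher in both libraries. The VEGF receptor genes Flt1, Kdr and Flt4 had at most 17 counts, and the adrenomedullin receptor gene Calcrl had 17 in each library, at 0.07 and 0.05 TPM. Vegfc, Vegfd, Pgf and Nrp1 had 0 counts in both libraries. Calca, which encodes the related peptides calcitonin and CGRP, had 15 counts in replicate 1 and 1 in replicate 2.

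Beyond these genes, the RNA of several HIF regulators and of glycolysis was abundant, and the other listed HIF targets ranged from 0 counts to above 100 TPM. All 12 coactivators and regulators of HIF were detected, beside 40.0% of all protein-coding genes, with medians of 132 and 158 TPM. The coactivator genes Ep300 (p300) and Crebbp (CBP) were below those medians, at 30.15 and 33.7 TPM and at 8.59 and 13.3 TPM. Cited4 and Cited2, which compete with HIF for the coactivators p300 and CBP, were at 781 and 631 TPM and at 266 and 233 TPM. Rack1, which promotes oxygen-independent loss of HIF1A, was at 2911 and 7776 TPM, and Ncoa1 was lowest at 2.58 and 3.13. The list thus spanned levels from below Vhl to above Egln2.

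Of 21 genes of glycolysis and glucose entry that HIF can activate, 19 were detected, with medians of 105 and 113 TPM, beside 0.03 in both libraries for all protein-coding genes. Gapdh was highest at 26532 and 30324 TPM, followed by Aldoa at 6737 and 6530. Ldha, which makes lactate, was at 2027 and 2112 TPM. Pfkfb3, an activator of glycolysis, had 0 counts and Eno2 was under 1 TPM. Most of these genes are expressed in nearly every cell type, and HIF activity was not measured here.

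Of 34 other listed targets apart from the 10 genes, 17 were detected, with medians of 0.90 and 1.35 TPM. Bnip3, a mitophagy receptor, was highest at 127 and 134 TPM, and its relative Bnip3l was at 41.4 and 45.4. Fam162a and Higd1a, both mitochondrial proteins, were at 66.1 and 93.5 and at 76.4 and 75.1 TPM. Epo, Car12, Cxcr4, Edn1, Lox and Ak4 had 0 counts in both libraries, as did the secreted target Adm. The share detected, 17 of 34, stood beside 40.0% of all protein-coding genes. Over all these lists 55 of 95 genes (57.9%) were detected.

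**Figure D4:**
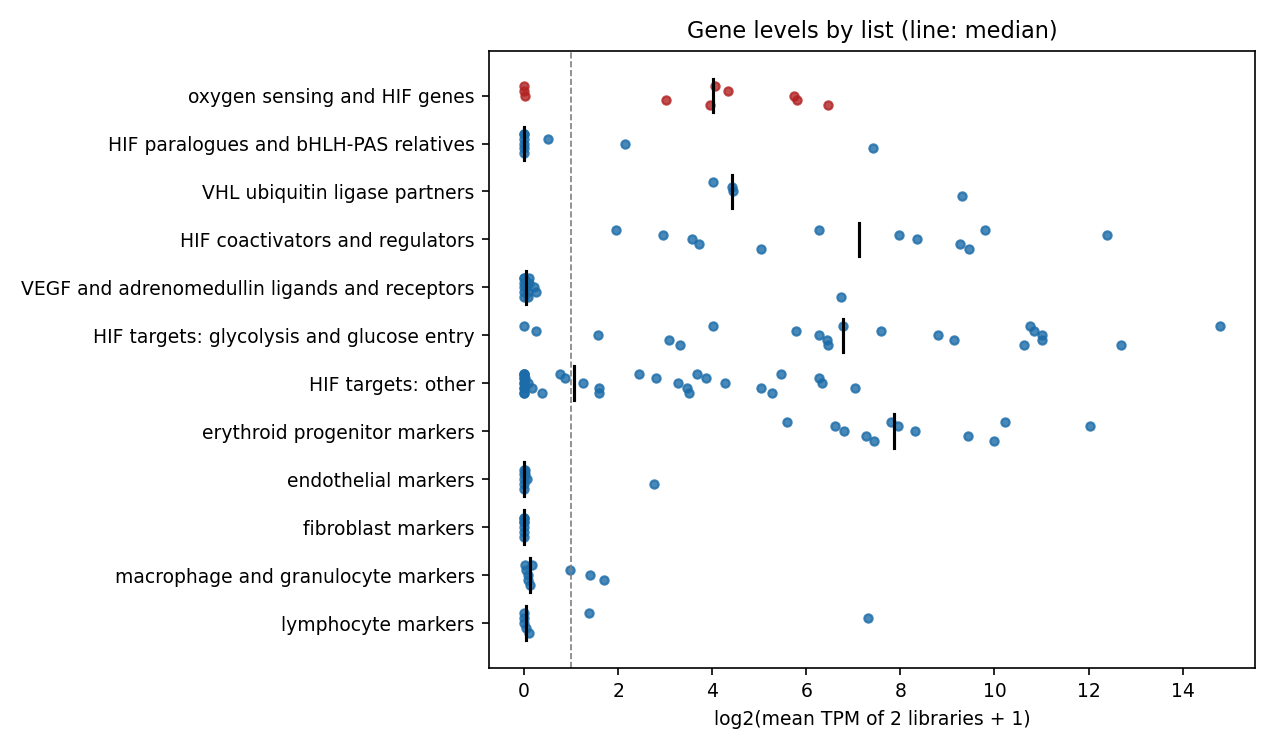
Level of each gene as log2(mean TPM + 1), by list, with the dashed line at 1 TPM and a bar at each list's median; the 10 genes are removed from the list of other targets and Kdr is in 2 lists. Coactivators and regulators, glycolysis genes and erythroid markers lie mostly above the line, and receptors and markers of other cell types mostly below it.

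None of the 10 genes was called different between the libraries. Rounded expected counts were compared gene by gene by an exact conditional binomial test (two-sided, TMM-scaled totals), with Benjamini-Hochberg adjustment over 11636 genes. A call needed a 2-fold ratio as well as an adjusted p under 0.05. The test covers counting error only and compares these 2 libraries. It called 5.62% of all genes tested, and 7 of the 10 had enough counts to be tested. Without the fold requirement 6 of the 7 passed, as did 64.4% of all genes.

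Scaled counts of Egln2 were lower in replicate 2 by the largest ratio of the 7, log2 -0.56 (adjusted p = 3.45e-171, exact conditional binomial test), and those of Vhl followed at -0.45 (adjusted p = 3.43e-13). Egln1 was at -0.30, Arnt at -0.14, Hif1a at -0.13, Vegfa at -0.02 and Hif1an at 0.13. With library totals in place of TMM, which moved the median of all genes from 0.01 to 0.13, Vegfa was at 0.10. The other 6 kept their sign, but Hif1a and Arnt were only at -0.007 and -0.02. The ratio of TPM, which is scaled by effective length, had the other sign for Hif1an (-0.05), Arnt (0.004) and Vegfa (0.18). It kept the sign for Hif1a, Vhl, Egln1 and Egln2. Directions for Hif1an, Arnt and Vegfa therefore depend on the scaling. With edgeR's exact test and a dispersion taken from the same libraries, the adjusted p was 1 for each of the 7. With TMM scaling, the differences in counts therefore exceeded counting error for 6 genes. The edgeR dispersion was estimated from the same 2 libraries that it compares, so it is no separate measure of the spread between replicates.

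Among the genes of the pathway lists, the exact conditional test called 4. Rbx1 (log2 ratio 1.35), Rack1 (1.17) and Eno2 (1.55, from 7 and 29 counts) were higher in replicate 2, as were 3.82% of all genes tested, and Calca (-4.41, from 15 and 1 counts) was higher in replicate 1, as were 1.80%. The split of calls over all genes, 444 higher in replicate 2 and 210 in replicate 1, was 598 and 170 with library totals and 56 and 58 with edgeR's exact test.

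**Figure D5:**
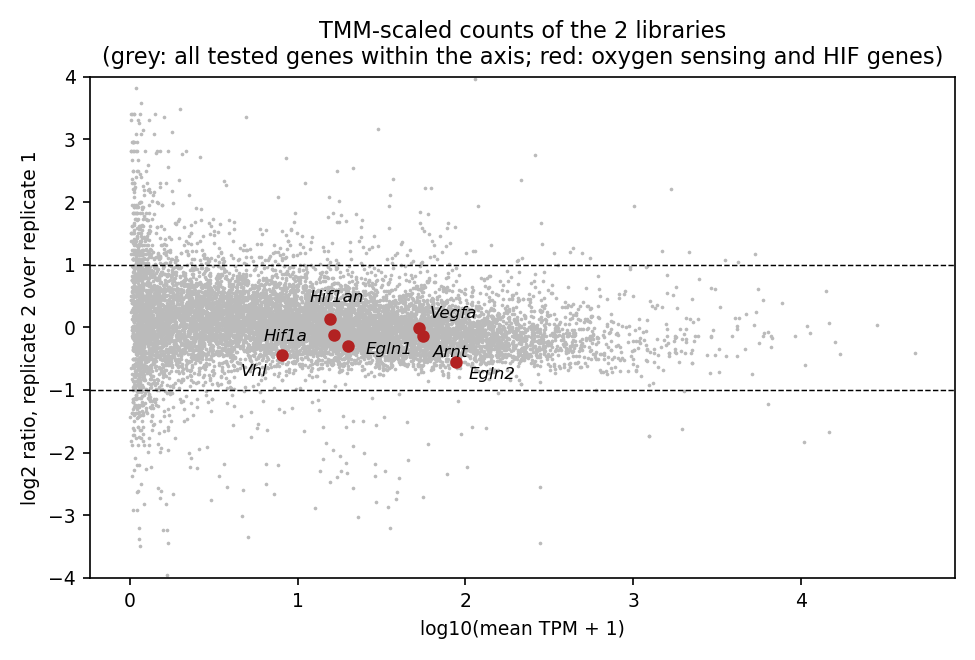
Log2 ratio of TMM-scaled counts, replicate 2 over replicate 1, against log10(mean TPM + 1) for all tested genes within the axis (grey) and the 7 tested oxygen sensing and HIF genes (red); dashed lines mark 2-fold. All 7 lie between the lines, from -0.56 for Egln2 to 0.13 for Hif1an.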

How the data were processed

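Per the deposited descriptions, each library was aligned to the transcriptome and quantified by gene and by transcript on mm10 with annotation M4. No aligner or quantifier is named in the sources used here. The authors' expected counts are estimated read counts that need not be whole. The deposited TPM and FPKM values are scaled by effective length and by library, and the tables add posterior mean versions. The deposited percent per transcript is its share of the gene's TPM. The TPM interval bounds were treated as a deposited score whose confidence level is not given.

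Symbols, positions and transcript models came from GENCODE M21 on the same assembly, by gene identifier without version (42462 of 43346 entries matched). Models with another length in M21 than in the tables were not described by structure. A deposited 0 was read as 0 counts with a limit of 3. Counts were rounded, genes reaching 10 counts in either library were tested, and TMM factors (0.960 and 1.04) and the alternative exact test came from edgeR 4.0.16 in R 4.3.3, with DESeq2 1.42.0 size factors as another alternative. The main test was tested on simulated data drawn with counting error only, so its behaviour under a wider spread was not tested. Transcripts were described where they led a gene or had a mean share of 10% or more, together with every coding Vegfa transcript. From each list the text names at most the 6 highest genes, the lowest and those called. Genes at or near 0 counts, the marker genes named, Ep300 and Crebbp go beyond that and were chosen after their values were seen. The genes and lists were chosen with earlier results of these data known. Tf and Ero1a were matched as Trf and Ero1l. Other steps ran in Python 3.11.15 with SciPy 1.17.1, NumPy 2.4.6 and pandas 2.3.3, and figures were drawn with matplotlib 3.10.9.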

Additional observations from a re-analysis of the deposited data

How the results depend on the processing

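No paired analysis was possible because the 2 libraries form 1 group. Among the main results under the alternatives, 45 values stayed within the spread between the libraries or a set factor, 9 moved and 1 reversed. The 45 include ratios and shares with 1 library left out. With n = 2 these cannot leave the spread, so they are no check. Also among the 45 is the number of pathway genes detected, which fell from 55 to 46 at 5 TPM and 39 at 10 TPM. On expected counts, which are not scaled by length, the log2 ratio of Hif1a to Epas1 was 9.58, of Hif1a to Arnt -2.16 and of Vhl to Hif1a -0.96, and the shares of Egln1, Egln2 and Egln3 were 27.8%, 72.2% and 0.00687%. With CCDS-tagged transcripts only, an alternative chosen after seeing the data, the first 2 ratios were 8.69 and -3.66 and that of Vhl to Hif1a reversed to 0.89, since the short Hif1a transcript has no such tag. With a minimum share of 20% the longer leading transcript was higher in replicate 2 in 58.2% of 3001 genes. With no fold requirement 6 of the genes were called between the libraries. The genes called among all tested were 654, against 421 with a minimum of 50 counts, 114 with edgeR, 7495 with no fold requirement, 1689 at 1.5-fold and 169 at 4-fold; none of the 10 genes was among those under the 1.5-fold or 4-fold requirement, the count minimum or edgeR. The ratio of Hif1a to Epas1 was not run on posterior mean TPM, where Epas1 is listed at 0. Depth limits Egln3, Epas1 and Adm, whose values rest on 0 or 1 counts.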
